A study of Mus musculus with 15 samples.

Results

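Transcripts of 33 genes of glucose uptake, glycolysis and glycogen metabolism were followed through the mouse left ventricle under aortic constriction, with and without neuregulin. The genes were taken by name, as a listed set of transporters, glycolytic enzymes, pyruvate dehydrogenase kinases and glycogen enzymes. Of the 33, 32 were measured among the 15258 genes of the files, and 31 had enough reads to be tested. Aldoc, an aldolase isoenzyme, was not analysed here, and Pgam1, a phosphoglycerate mutase, held too few reads for a test (0 to 9 reads in a library).

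The material was left ventricular RNA of male C57BL/6NRj mice, read by BRB-seq, an assay that barcodes each RNA sample and counts the 3′ ends of its transcripts. The 15 libraries formed 3 groups of 5. Sham saline mice had sham surgery and a minipump with saline. TAC saline mice had a transverse aortic constriction (TAC), in which a band round the aortic arch makes the left ventricle pump against a raised pressure, and a saline minipump. TAC NRG mice had TAC and a minipump with NRG1, neuregulin 1, a growth factor that signals to heart muscle cells through ERBB receptors. No group combined sham surgery with NRG, so the difference between NRG and saline was measured under constriction only. All groups share the strain, the sex, the tissue and batch 1, and the labels name no engineered allele. The sources used here give no age, dose or time after surgery.

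Glucose enters the heart muscle cell through GLUT1, encoded by Slc2a1, and GLUT4, encoded by Slc2a4, the transporter that insulin and contraction move to the surface. Hexokinase traps it as glucose phosphate, which is either stored as glycogen or passed through glycolysis, where phosphofructokinase makes the committed step. Pyruvate at the end of the pathway is reduced to lactate by lactate dehydrogenase or enters the mitochondrion through pyruvate dehydrogenase, which the Pdk kinases switch off. The adult heart draws most of its energy from fatty acids, and a return of isoenzymes used in the fetal heart is a known feature of the overloaded ventricle.

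Library depth was 2.02 to 5.62 M reads, and the 32 measured genes together took 1.35% to 1.68% of the reads of a library. The shallowest libraries were TAC NRG 4 and 5, with 2.02 and 2.13 M reads, and they also held the highest shares of red cell haemoglobin and Alas2 reads, 0.372% and 0.355%. Ventricular cardiomyocyte markers summed to 65341 to 81978 CPM in the 15 libraries, while 2 measured atrial markers summed to 2.02 to 5.69 CPM, with Myl7 at 0 reads in at least 1 library. The share of reads on mitochondrial genes was 31.1% ± 0.473 in sham saline, 27.7% ± 1.62 in TAC saline and 25.8% ± 2.35 in TAC NRG. A level is given in CPM, reads per M on the authors' scaling, with each group's values in the order of libraries 1 to 5. Each level includes the 0.5 reads added in the deposited values, so a gene with 0 reads has a level above 0. Means carry the SD over the 5 libraries of a group, and log2 fold changes carry their standard error. Because 3′ ends were counted, levels were not divided by transcript length. The labels do not say that each library is a separate mouse, so each p-value is measured against the scatter of samples that may be technical replicates.

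Under constriction alone, the glucose genes moved down more often than up. Between TAC saline and sham saline, 1 of 31 tested genes rose, the phosphofructokinase Pfkp, and 5 fell: Slc2a4, the hexokinase Hk2, the lactate dehydrogenase Ldhb, the kinase Pdk2 and the muscle glycogen phosphorylase Pygm. A gene was called where limma's Benjamini-Hochberg adjusted p over all 11018 tested genes was under 0.05, a rule that called 6.47% of all tested genes higher and 4.24% lower. The median log2 fold change was -0.09 over the 31 genes and -0.01 over all tested genes. In each comparison the median standard error was 0.1 over the 31 genes and 0.159 over all tested genes. Smaller changes could thus pass the threshold in the 31 genes than in most others. The groups did not overlap for 1 gene that was higher, Pfkp, and 3 that were lower, Slc2a4, Pdk1 and Gbe1, against 4.72% and 3.68% of all tested genes. The number of calls rested on single libraries: it was 2 when sham saline 1, sham saline 2, TAC saline 1 or TAC saline 5 was left out, and 3 without sham saline 4, sham saline 5 or TAC saline 4. Scaling by total reads alone moved the median of all genes by 0.10, and under it 3 genes were called higher (Pfkp, Ldha and Ugp2) and 1 lower (Ldhb).

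With NRG under constriction, 2 of 31 genes rose against TAC saline, Pfkp and the triose phosphate isomerase Tpi1, and 0 fell. Over all tested genes limma called 0.672% higher and 0.626% lower. The median log2 fold change was 0.12 over the 31 genes and -0.01 over all tested genes. Of the 31 genes, 15 had an unadjusted limma p under 0.05, against 1691 of the 11018 tested genes. The same 1691 stands beside the counts at an unadjusted p given below for other gene lists and markers in this comparison. All 5 TAC NRG libraries lay above all 5 TAC saline libraries for 6 genes, Hk1, Gpi1, Pfkp, Gapdh, Slc16a1 and Gbe1, and below them for 0, where 1.81% and 1.25% of all tested genes were separated in these directions. Without TAC NRG 4 and 5 together, 0 genes were called, and with 1 library left out the count was 1 without TAC saline 1, 2, 4 or 5 or TAC NRG 4 or 5. The 5 red cell markers all rose in this comparison, with a summed level of 980.3 to 1474 CPM in TAC saline and 1703 to 3488 CPM in TAC NRG, and their part in the result was not tested.

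Against sham saline, the TAC NRG libraries carried the most calls, 10 genes higher and 7 lower of 31. Those that rose were Slc2a1, Hk1, Gpi1, Pfkl, Pfkp, Tpi1, Gapdh, Eno1, Ldha and Slc16a1, and those that fell were Slc2a4, Pfkfb2, Eno3, Ldhb, Pdk2, Pygb and Phkg1. Over all tested genes limma called 8.74% higher and 7.39% lower, and the median log2 fold change was 0.05 over the 31 genes and -0.01 over all. The groups did not overlap for 8 of the genes that rose (all but Slc2a1 and Pfkl) and for 4 that fell (Slc2a4, Pfkfb2, Pdk2 and Pygb), against 6.23% and 5.45% of all tested genes. Scaling by total reads alone gave 12 higher and 5 lower, and without TAC NRG 4 and 5 the counts were 6 and 9. This comparison shares its sham saline libraries with the first and its TAC NRG libraries with the second, so the 3 sets of calls are not independent of each other.

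**Figure D1:**
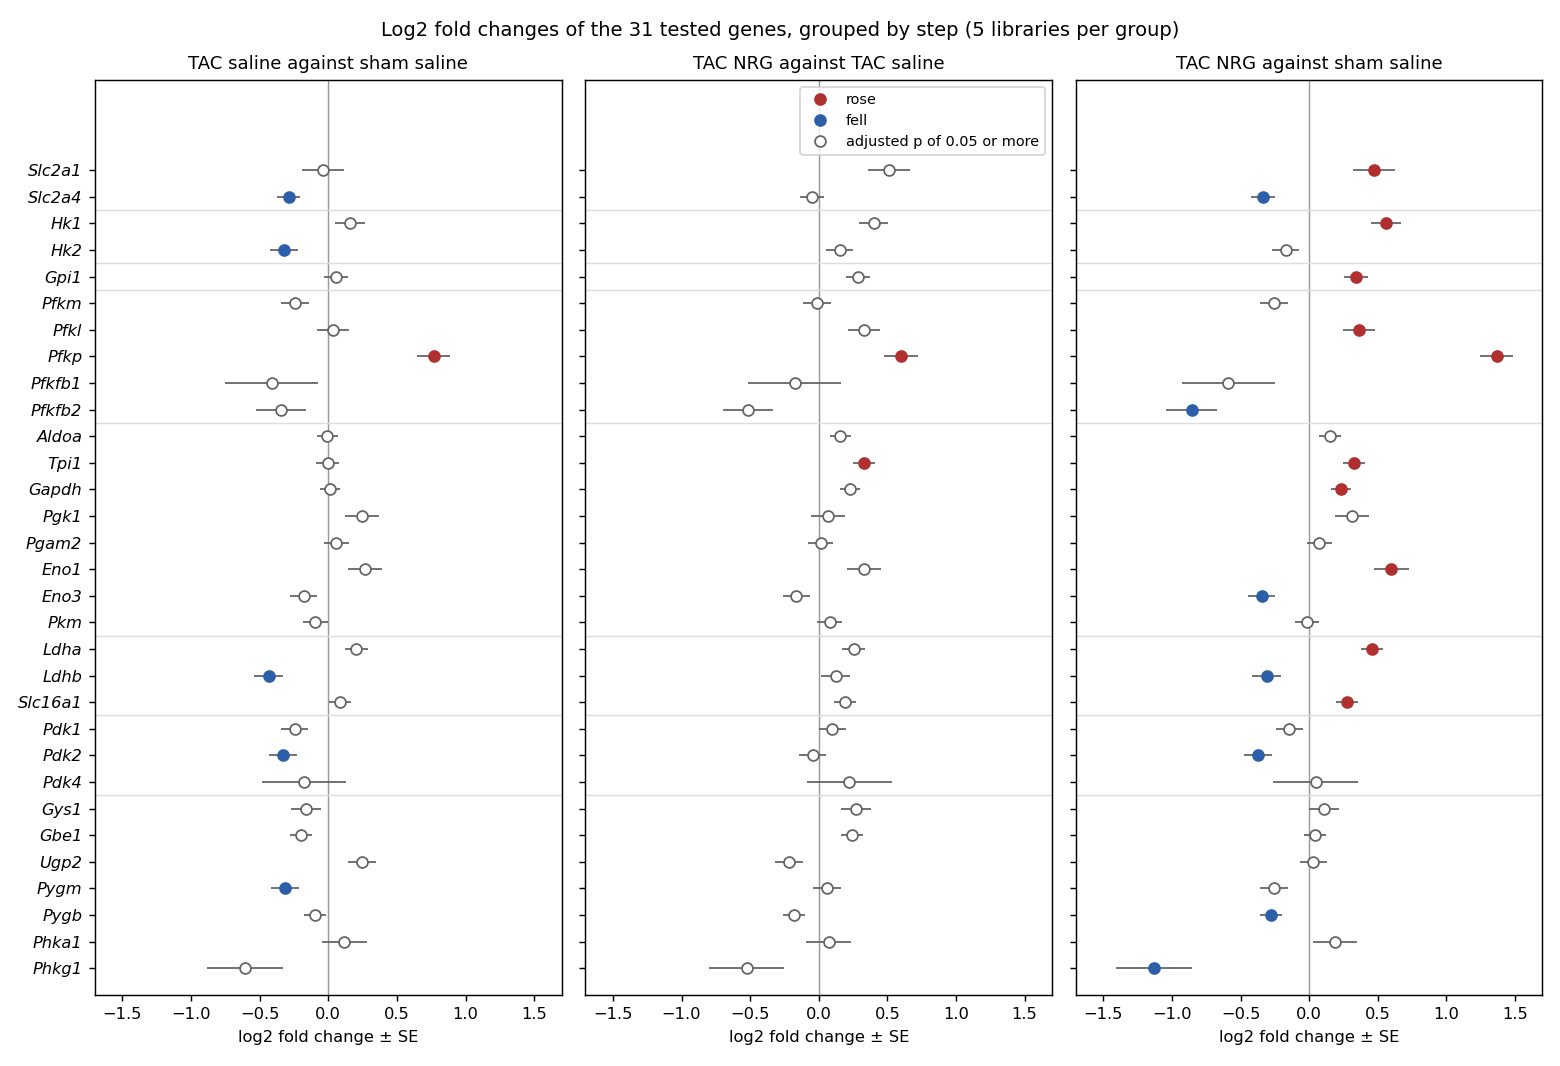
Log2 fold change ± SE of the 31 tested genes (vertical axis, grouped by step) in the 3 comparisons, each from limma on 5 libraries per group; filled red points rose, filled blue points fell and open points had an adjusted p of 0.05 or more. Pfkp is filled red in all 3 panels, and the right panel holds 10 red and 7 blue points.

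Of the glucose transporters, Slc2a4, the insulin-responsive GLUT4, was lower after constriction with or without NRG. Its levels were 252.5, 258, 228, 258 and 234 CPM in the sham saline libraries, 195, 208, 227, 196 and 181 CPM in TAC saline and 191, 205, 157, 209 and 217 CPM in TAC NRG. All sham saline libraries lay above all others, by a narrow margin over TAC saline 3, and the TAC groups overlapped. Slc2a4 fell by 18.2% in TAC saline (log2 fold change -0.29 ± 0.09, limma adjusted p = 0.0307) and by 20.8% in TAC NRG (-0.34 ± 0.09, adjusted p = 0.00849). The first call was lost without sham saline 1, 2 or 4 or TAC saline 1, 4 or 5, at adjusted p between 0.0636 and 0.103. Between the TAC groups the log2 difference was -0.05, with a 95% interval of -0.22 to 0.13.

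Slc2a1, the basal transporter GLUT1, showed another order of groups. It stood at 16.3, 14.1, 15.2, 20.9 and 14.8 CPM in the sham saline libraries, 14.03, 17.6, 14.7, 16.7 and 15.5 CPM in TAC saline and 27.8, 19.4, 28.7, 21.6 and 16.6 CPM in TAC NRG. Sham saline and TAC saline overlapped, and 4 of 5 TAC NRG libraries were above every TAC saline library, with TAC NRG 1 and 3 highest. Slc2a1 rose 1.39-fold in TAC NRG against sham saline (log2 fold change 0.47 ± 0.15, limma adjusted p = 0.0358). Against TAC saline the difference was 0.51 ± 0.15 with an adjusted p of 0.0919. The call against sham saline was lost without sham saline 1, 2, 3 or 5 or TAC NRG 1, 3 or 4, with adjusted p between 0.0531 and 0.111.

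The hexokinases, which phosphorylate glucose on entry, also divided. Hk1, the hexokinase found in most tissues, had levels of 63.3, 49.98, 45.5, 54.5 and 64.8 CPM in the sham saline libraries, 65.5, 61.9, 50.4, 70.3 and 61.2 CPM in TAC saline and 75.3, 74.9, 87.0, 77.8 and 92.2 CPM in TAC NRG. Every TAC NRG library exceeded every library of the other groups, which overlapped each other. Hk1 rose 1.47-fold in TAC NRG against sham saline (log2 fold change 0.56 ± 0.11, limma adjusted p = 0.00076), and its difference from TAC saline was 0.40 ± 0.11 with an adjusted p of 0.0629. Hk2, the main hexokinase of insulin-sensitive muscle, had levels of 139.5, 122, 131, 115 and 135 CPM in the sham saline libraries, 111, 118, 119, 81.5 and 88.1 CPM in TAC saline and 120.4, 108, 124, 113 and 104 CPM in TAC NRG. TAC saline 4 and 5 were the lowest libraries, and the TAC NRG values lay within the span of the other groups. Hk2 fell by 20.1% in TAC saline (-0.32 ± 0.10, adjusted p = 0.0384), a call lost without sham saline 1, 2, 3 or 5 or TAC saline 1, 4 or 5 at adjusted p of 0.0504 to 0.132. In TAC NRG against sham saline the Hk2 difference was -0.17 ± 0.10 with an adjusted p of 0.27.

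Gpi1, glucose phosphate isomerase, links hexokinase to phosphofructokinase. Its levels were 228, 214, 169, 221 and 219 CPM in the sham saline libraries, 193, 243, 231, 221 and 201 CPM in TAC saline and 245, 253, 246, 289.5 and 295 CPM in TAC NRG. TAC NRG lay above both other groups without overlap, with TAC NRG 4 and 5 highest. Gpi1 rose 1.27-fold against sham saline (log2 fold change 0.34 ± 0.09, limma adjusted p = 0.01). Without TAC NRG 4 and 5 its adjusted p was 0.0999.

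Phosphofructokinase commits sugar to glycolysis, and its genes encode muscle (Pfkm), liver (Pfkl) and platelet (Pfkp) subunits that assemble into tetramers. Pfkp gave the largest change of any gene of the set, and its groups were separated in each comparison. Pfkp levels were 29.7, 23.9, 21.2, 28.8 and 23.2 CPM in the sham saline libraries. They were 45.8, 40.4, 38.3, 37.7 and 53.7 CPM in TAC saline. In TAC NRG they were 59.6, 58.4, 82.9, 66.2 and 59.9 CPM. The lowest library of each group thus exceeded the highest of the group before it, and TAC NRG 3 was the highest of all. Group means were 25.4 ± 3.70 CPM, 43.2 ± 6.72 CPM and 65.4 ± 10.3 CPM (SD, n = 5). Pfkp rose 1.702-fold in TAC saline against sham saline (log2 fold change 0.77 ± 0.12, limma adjusted p = 0.000232). It rose a further 1.51-fold in TAC NRG against TAC saline (0.60 ± 0.12, adjusted p = 0.0135) and stood 2.58-fold above sham saline (1.37 ± 0.12, adjusted p = 6.68e-08). Without TAC NRG 4 and 5 the difference between the TAC groups was 0.63 with an adjusted p of 0.0573.

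Pfkm, the muscle subunit, held levels of 490.4, 459, 432, 462 and 489 CPM in the sham saline libraries, 359, 425, 485, 389.8 and 328 CPM in TAC saline and 369.7, 411, 307, 419 and 464 CPM in TAC NRG. Sham saline spanned the narrowest range, while TAC saline 3 and TAC NRG 5 reached into it and TAC NRG 3 was lowest. The log2 difference from sham saline was -0.24 ± 0.10 in TAC saline and -0.26 ± 0.10 in TAC NRG, with limma adjusted p of 0.131 and 0.0861. Pfkl, the liver subunit, was at 44.1, 41.0, 34.9, 39.5 and 41.4 CPM in the sham saline libraries, 48.7, 47.6, 35.5, 42.2 and 33.8 CPM in TAC saline and 45.7, 43.2, 55.9, 56.4 and 59.0 CPM in TAC NRG. Sham saline and TAC saline overlapped throughout, and TAC NRG 3, 4 and 5 were above all other libraries. Pfkl rose 1.29-fold in TAC NRG against sham saline (0.37 ± 0.12, adjusted p = 0.0342). Leaving out sham saline 2, 3, 4 or 5 or TAC NRG 3, 4 or 5 ended the call, with adjusted p between 0.0507 and 0.0928, and without TAC NRG 4 and 5 together the adjusted p was 0.214.

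The Pfkfb genes encode bifunctional enzymes that set the level of a fructose bisphosphate that activates phosphofructokinase and is distinct from its product. Pfkfb2, the form abundant in heart, had levels of 40.6, 30.99, 35.6, 30.7 and 58.5 CPM in the sham saline libraries, 32.5, 29.9, 37.9, 20.2 and 32.8 CPM in TAC saline and 25.3, 28.1, 15.9, 16.9 and 21.4 CPM in TAC NRG. All TAC NRG libraries were below all sham saline libraries, sham saline 5 was the highest by a wide gap, and TAC saline overlapped both. Pfkfb2 fell by 44.8% in TAC NRG against sham saline (log2 fold change -0.86 ± 0.18, limma adjusted p = 0.002). In TAC saline against sham saline the difference was -0.34 ± 0.18, adjusted p 0.259, and between the TAC groups -0.51 ± 0.18, adjusted p 0.168. Pfkfb1, the liver and skeletal muscle form, was low and scattered, at 2.84 to 14.5 CPM in sham saline, 2.53 to 7.29 CPM in TAC saline and 3.76 to 5.83 CPM in TAC NRG, and passed no test.

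**Figure D2:**
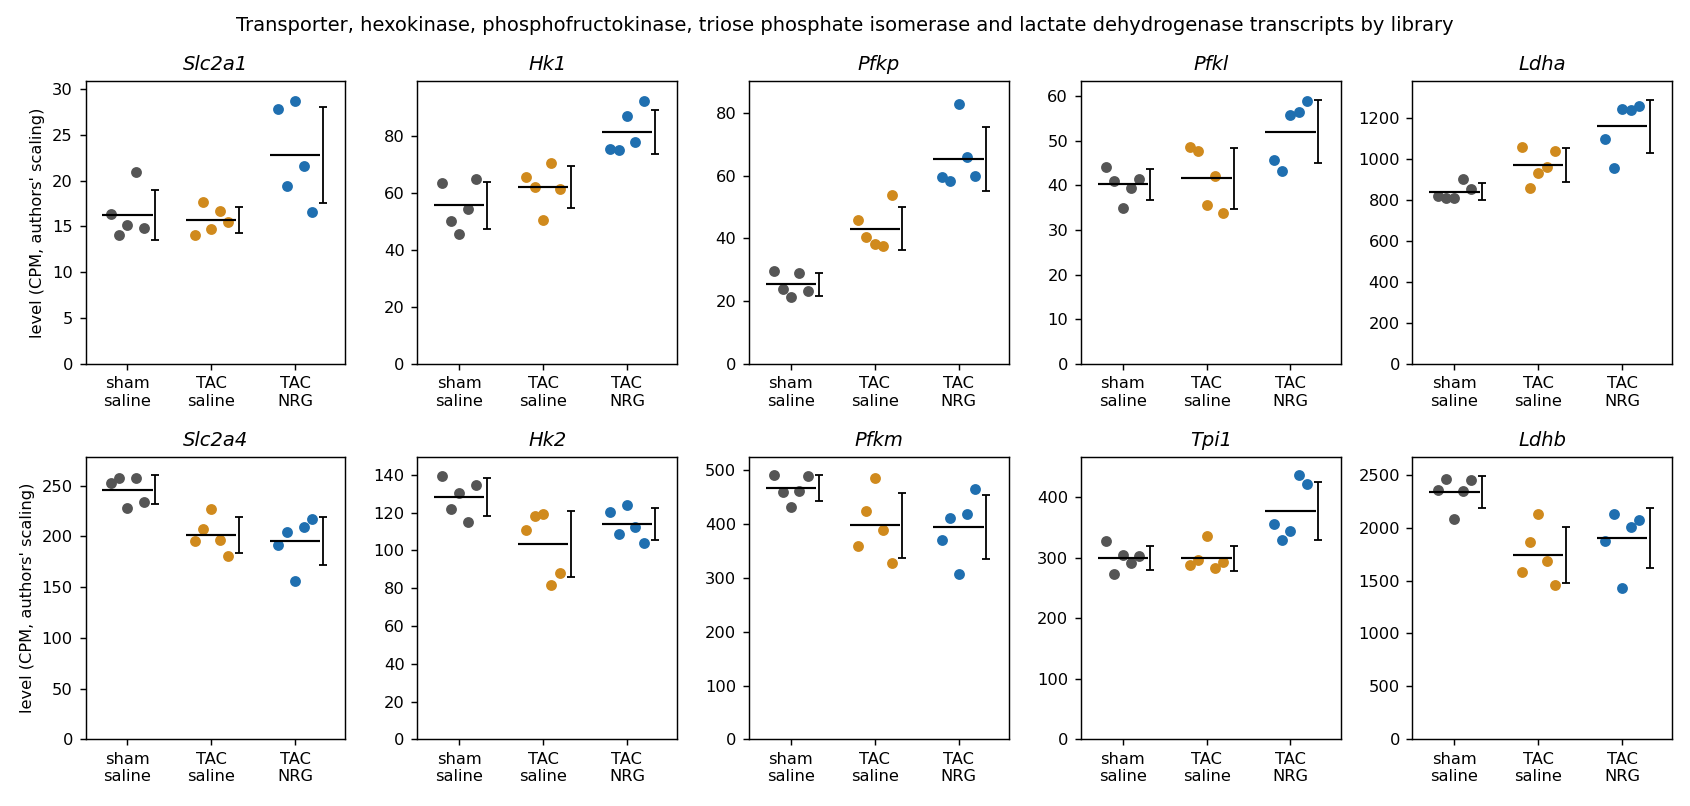
Level in CPM on the authors' scaling (vertical axes, starting at 0) of 10 transporter, hexokinase, phosphofructokinase, isomerase and lactate dehydrogenase genes; each point is 1 library, the line is the group mean and the bar beside it the SD of 5 libraries. Pfkp steps up from 21.2 to 29.7 CPM in sham saline to 37.7 to 53.7 CPM in TAC saline and 58.4 to 82.9 CPM in TAC NRG, while Slc2a4 and Ldhb sit lower in both TAC groups than in sham saline.

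Below phosphofructokinase, Tpi1, which interconverts the triose phosphates, was the other gene to rise with NRG against TAC saline. Tpi1 levels were 328, 273, 305, 292 and 302 CPM in sham saline. They were 289, 296, 335, 283 and 292 CPM in TAC saline. In TAC NRG they were 356, 329.8, 344, 436 and 421 CPM. Sham saline and TAC saline overlapped, TAC NRG 4 and 5 were the highest, and TAC NRG 2 was below TAC saline 3. Tpi1 rose 1.26-fold against TAC saline (log2 fold change 0.33 ± 0.08, limma adjusted p = 0.0437) and 1.25-fold against sham saline (0.33 ± 0.08, adjusted p = 0.00819). The first call was lost without TAC saline 1, 2, 4 or 5 or TAC NRG 4 or 5, at adjusted p of 0.0811 to 0.153. Without TAC NRG 4 and 5 together the log2 difference was 0.20 with an adjusted p of 0.391 against TAC saline, and the adjusted p against sham saline was 0.118.

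Gapdh, which oxidises glyceraldehyde phosphate, was at 810.0, 787, 775, 854 and 876 CPM in the sham saline libraries, 828, 904, 732, 848 and 826 CPM in TAC saline and 915, 951, 935, 1099 and 934 CPM in TAC NRG. TAC NRG lay above both other groups, with TAC NRG 4 apart from the rest. Gapdh rose 1.18-fold in TAC NRG against sham saline (log2 fold change 0.23 ± 0.07, limma adjusted p = 0.0298), and against TAC saline the difference was 0.23 ± 0.07 with an adjusted p of 0.127. The call was lost without sham saline 1, 2 or 3 or TAC NRG 4, at adjusted p of 0.0598 to 0.0962, and without TAC NRG 4 and 5 the adjusted p was 0.126.

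The enolases, which form phosphoenolpyruvate, moved apart between TAC NRG and sham saline. Eno1, the enolase of most tissues, had levels of 38.1, 30.7, 31.7, 38.0 and 42.0 CPM in the sham saline libraries, 40.9, 47.4, 30.99, 51.8 and 48.2 CPM in TAC saline and 59.0, 51.1, 57.4, 47.1 and 58.1 CPM in TAC NRG. TAC NRG was above sham saline without overlap, and TAC saline spread across both ranges. Eno1 rose 1.52-fold in TAC NRG against sham saline (log2 fold change 0.60 ± 0.12, limma adjusted p = 0.00162). Its near-copy Eno1b held 10.2% as many reads as Eno1, so part of the Eno1 reads may have been assigned to either gene and its level is uncertain. Eno3, the muscle enolase, was at 2079.5, 1944, 1803, 1964 and 2031 CPM in the sham saline libraries, 1700.2, 1754, 1913, 1713 and 1595 CPM in TAC saline and 1477, 1721, 1167, 1929 and 1537 CPM in TAC NRG. TAC NRG 3 was lowest, and TAC NRG 4 lay within the sham saline range. Eno3 fell by 21.3% (-0.34 ± 0.10, adjusted p = 0.0173).

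The other genes of lower glycolysis passed no test. Aldoa, the muscle aldolase, ranged over 3054 to 4029 CPM. Pgk1, the phosphoglycerate kinase that makes ATP, ranged over 50.9 to 98.5 CPM, with a log2 difference of 0.31 ± 0.12 in TAC NRG against sham saline and a limma adjusted p of 0.085. Pgam2, the muscle phosphoglycerate mutase, ranged over 774 to 1092 CPM, and Pkm, the pyruvate kinase, over 387 to 549 CPM. Their differences in TAC NRG against sham saline were 0.07 ± 0.09 and -0.01 ± 0.09.

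At the lactate step the subunits of lactate dehydrogenase changed in opposite directions in TAC NRG against sham saline. Ldha, whose subunit predominates in skeletal muscle, had levels of 822, 812, 808, 905 and 855 CPM in the sham saline libraries, 1059.7, 858, 930.0, 962 and 1041 CPM in TAC saline and 1099.7, 957, 1247, 1239 and 1260.3 CPM in TAC NRG. TAC NRG was above sham saline without overlap, and TAC saline overlapped both. Ldha rose 1.37-fold in TAC NRG against sham saline (log2 fold change 0.46 ± 0.08, limma adjusted p = 0.000346). The difference of TAC saline from sham saline was 0.20 ± 0.08 and that between the TAC groups 0.26 ± 0.08, with adjusted p of 0.116 and 0.121. Under total reads as the only scaling, Ldha was called higher in TAC saline.

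Ldhb, whose subunit predominates in heart, had levels of 2356, 2454, 2084, 2347 and 2449 CPM in the sham saline libraries, 1576, 1861, 2129, 1684 and 1456 CPM in TAC saline and 1873, 2129, 1428, 2008 and 2069 CPM in TAC NRG. TAC saline 3 and TAC NRG 2 reached just above sham saline 3, the lowest sham library, and all other TAC libraries were below every sham saline library. Ldhb fell by 26.0% in TAC saline against sham saline (log2 fold change -0.43 ± 0.10, limma adjusted p = 0.00833) and by 19.3% in TAC NRG (-0.31 ± 0.10, adjusted p = 0.0443). The second call was lost without sham saline 1, 2, 4 or 5 or TAC NRG 1, 3 or 4, at adjusted p of 0.0518 to 0.132. Slc16a1, which encodes the lactate and pyruvate carrier MCT1, was at 194, 177, 213, 189 and 173 CPM in the sham saline libraries, 206, 213, 218, 166 and 203 CPM in TAC saline and 232, 223, 239, 221 and 227 CPM in TAC NRG. TAC NRG lay above both other groups, and TAC saline 4 was the lowest library. Slc16a1 rose 1.21-fold in TAC NRG against sham saline (0.27 ± 0.08, adjusted p = 0.0203), a call lost without sham saline 2 or 5 at adjusted p of 0.0536 and 0.0617. Against TAC saline its difference was 0.19 ± 0.08 with an adjusted p of 0.26.

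Upstream sequences are shown for Ldha and Ldhb, the subunits that moved apart, and for Pfkp, the gene with the largest change. Each is the 250 bases before a RefSeq transcription start on GRCm38.p6, an older build than the one the reads were assigned on, written 5′ to 3′ on the gene's strand. Capitals mark the letters ACGTG on either strand, a form of the core of the element bound by hypoxia-inducible factors and part of the E-box CACGTG. Other forms of that core were not searched for or marked. Ldha lies at chr7:46845554-46845803 on the plus strand, Ldhb at chr6:142507958-142508207 on the minus strand and Pfkp at chr13:6648772-6649021 on the minus strand.
Ldha: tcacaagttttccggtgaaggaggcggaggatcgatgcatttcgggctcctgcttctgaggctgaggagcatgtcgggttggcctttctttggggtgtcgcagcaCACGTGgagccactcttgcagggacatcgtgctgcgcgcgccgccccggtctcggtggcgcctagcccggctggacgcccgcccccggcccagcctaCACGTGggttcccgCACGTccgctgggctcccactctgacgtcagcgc
Ldhb: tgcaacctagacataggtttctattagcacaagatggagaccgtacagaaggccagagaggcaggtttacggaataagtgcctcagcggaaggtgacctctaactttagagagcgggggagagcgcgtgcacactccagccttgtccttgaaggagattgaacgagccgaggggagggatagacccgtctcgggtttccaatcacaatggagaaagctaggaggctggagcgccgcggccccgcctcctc
Pfkp: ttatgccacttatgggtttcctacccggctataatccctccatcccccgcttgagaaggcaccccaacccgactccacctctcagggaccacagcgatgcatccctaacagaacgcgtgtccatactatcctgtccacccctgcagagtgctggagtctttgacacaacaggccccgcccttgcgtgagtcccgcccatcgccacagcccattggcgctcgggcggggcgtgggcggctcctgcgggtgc
Of 2 RefSeq starts of Ldha, the upstream one is shown. Its window held 5 matches, at 145, 144, 48, 47 and 34 bases before the start, where a CACGTG counts as 1 match on each strand, and the window of the other start, chr7:46846832-46847081, held 0. Ldhb and Pfkp held 0 matches, which says only that these letters are not in these windows. RefSeq gave 51 starts for 32 of the 33 genes, with no entry for Slc2a4. ACGTG was in 17 of the 51 windows (33.3%), in 21.9% of 11208 windows of tested genes and in 16.6% of all 32851 windows. CACGTG was in 5 of 51 (9.80%), against 8.51% and 6.02%, and TATAAA, a core promoter element, in 1 of 51 (1.96%), against 6.52% and 12.4%. These matches describe the sequence and are not evidence of binding.

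The pyruvate dehydrogenase kinases, which hold pyruvate out of the mitochondrial oxidation route, did not move as a group. Pdk2, a widely expressed kinase, had levels of 248, 274, 208, 256 and 252.1 CPM in the sham saline libraries, 200.3, 201, 238, 197 and 154 CPM in TAC saline and 199, 203, 158, 190.2 and 206 CPM in TAC NRG. All TAC NRG libraries were below all sham saline libraries, and TAC saline 3 reached into the sham range. Pdk2 fell by 20.4% in TAC saline (log2 fold change -0.33 ± 0.10, limma adjusted p = 0.0356) and by 22.7% in TAC NRG (-0.37 ± 0.10, adjusted p = 0.0123), both against sham saline. The first call was lost without sham saline 1, 2, 4 or 5 or TAC saline 1, 4 or 5, at adjusted p of 0.062 to 0.139. Pdk1 was at 73.9, 74.8, 107, 71.5 and 71.4 CPM in the sham saline libraries, 65.8, 66.9, 62.9, 67.1 and 69.4 CPM in TAC saline and 64.0, 70.9, 73.7, 76.4 and 71.4 CPM in TAC NRG. Every TAC saline library was below every sham saline library, with sham saline 3 far above the rest, and the difference of -0.25 ± 0.10 had an adjusted p of 0.117. Pdk4, the kinase induced by fasting and fatty acids, ranged over 95.1 to 361 CPM in sham saline, 93.4 to 328 CPM in TAC saline and 104 to 261 CPM in TAC NRG. Its groups overlapped throughout, with log2 differences of -0.18 ± 0.31, 0.22 ± 0.31 and 0.05 ± 0.31 in the 3 comparisons.

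Among 12 further genes of pyruvate entry and pyruvate dehydrogenase, 4 fell and 0 rose in TAC saline against sham saline, 0 changed between the TAC groups (3 at an unadjusted p under 0.05), and 6 fell and 0 rose in TAC NRG against sham saline. Of all tested genes 4.24% fell in TAC saline, against 33.3% of this list, and 7.39% fell in TAC NRG, against 6 of 12. The median standard error was 0.096 in this list and 0.159 over all tested genes, so smaller changes could pass the threshold here. Pdp2, a phosphatase that switches pyruvate dehydrogenase back on, fell from 27.1 ± 4.57 CPM to 17.2 ± 4.16 CPM in TAC saline (log2 fold change -0.68 ± 0.17, limma adjusted p = 0.0133) and to 12.6 ± 2.81 CPM in TAC NRG (-1.12 ± 0.17, adjusted p = 8.91e-05). Mpc2, a subunit of the mitochondrial pyruvate carrier, fell by 17.9% and 17.2%, and Pdha1, a catalytic subunit of the dehydrogenase, by 13.6% and 12.8%. Pcx, pyruvate carboxylase, fell by 26.8% in TAC saline. Pdhb, Dld and Pdpr fell by 18.4%, 16.7% and 50.1% in TAC NRG. Of these 10 calls, the fall of Pdp2 in TAC NRG was kept under every alternative run, and the others were lost under at least 1, at adjusted p up to 0.298.

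Of the 7 glycogen genes, Pygm fell in TAC saline against sham saline and Pygb and Phkg1 fell in TAC NRG against sham saline, while Phka1, Gys1, Gbe1 and Ugp2 were not called in any comparison. Pygm, the muscle glycogen phosphorylase, had levels of 607, 537, 446, 601 and 614 CPM in the sham saline libraries, 428, 454, 529, 474 and 369 CPM in TAC saline and 477, 466, 383, 510.1 and 508 CPM in TAC NRG. TAC saline 3 and sham saline 3 made the groups overlap, TAC saline 5 was lowest, and TAC NRG lay within the combined range of the others. Pygm fell by 19.7% in TAC saline (log2 fold change -0.32 ± 0.10, limma adjusted p = 0.0439), a call lost without any single one of the 10 libraries except sham saline 3 and TAC saline 3, at adjusted p of 0.0565 to 0.157. Pygb, the brain form of the phosphorylase, was at 351, 398, 360.0, 382 and 377 CPM in the sham saline libraries, 319, 359, 325, 401 and 344 CPM in TAC saline and 305, 283, 276, 346 and 334 CPM in TAC NRG. TAC NRG lay below sham saline without overlap, and TAC saline overlapped both. Pygb fell by 17.6% in TAC NRG (-0.28 ± 0.08, adjusted p = 0.0177), and under total reads as the only scaling its adjusted p was 0.125.

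Phkg1, the catalytic subunit of muscle phosphorylase kinase, was a low transcript at 7.67, 13.8, 9.09, 11.7 and 10.6 CPM in the sham saline libraries, 3.90, 8.62, 6.75, 8.53 and 7.58 CPM in TAC saline and 5.94, 4.09, 8.28, 4.88 and 2.43 CPM in TAC NRG. TAC NRG 3 lay within the sham saline range and TAC NRG 5 was the lowest of all. Phkg1 fell by 54.4% in TAC NRG against sham saline (log2 fold change -1.13 ± 0.28, limma adjusted p = 0.00591). Phka1, a regulatory subunit of the same kinase, ranged over 14.9 to 35.3 CPM and differed by 0.19 ± 0.16 in the same comparison, with an adjusted p of 0.484.

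Gbe1, the branching enzyme of glycogen synthesis, was at 62.4, 55.3, 58.5, 53.9 and 56.1 CPM in the sham saline libraries, 47.9, 48.6, 48.3, 53.5 and 50.9 CPM in TAC saline and 59.6, 61.3, 57.2, 60.1 and 56.8 CPM in TAC NRG. TAC saline lay below both other groups without overlap, while TAC NRG and sham saline covered the same range. The log2 difference was -0.20 ± 0.08 in TAC saline against sham saline and 0.24 ± 0.08 in TAC NRG against TAC saline, with limma adjusted p of 0.12 and 0.133. Ugp2, which makes the UDP-glucose used by glycogen synthase, was at 281, 349, 304, 369.6 and 328 CPM in the sham saline libraries, 462, 333, 419.9, 304 and 433 CPM in TAC saline and 328, 345, 303, 358 and 326 CPM in TAC NRG. TAC saline 1, 3 and 5 were the highest libraries, with a difference of 0.25 ± 0.10 from sham saline and an adjusted p of 0.121, which was called under total reads as the only scaling. Gys1, the muscle glycogen synthase, ranged over 39.8 to 67.1 CPM and differed by 0.27 ± 0.11 between the TAC groups, with an adjusted p of 0.236.

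Of 18 other tested glycogen genes, 1 rose and 2 fell in TAC saline against sham saline, 0 changed between the TAC groups (2 at an unadjusted p under 0.05), and 2 rose and 3 fell in TAC NRG against sham saline. The shares that rose, 5.56% and 11.1%, were near the 6.47% and 8.74% of all tested genes, and those that fell were 11.1% and 16.7% against 4.24% and 7.39%. Ppp1r3a, the muscle subunit that directs protein phosphatase to glycogen, fell by 33.1% in TAC saline (log2 fold change -0.58 ± 0.14, limma adjusted p = 0.00757) and by 24.1% in TAC NRG (-0.40 ± 0.14, adjusted p = 0.0492). Phkb, another regulatory subunit of phosphorylase kinase, fell by 27.1% in TAC saline and 30.3% in TAC NRG. Stbd1, which tethers glycogen to membranes, rose 1.52-fold and 1.78-fold. In TAC NRG, Gyg, the glycogenin primer, rose 1.17-fold and Epm2a, the glycogen phosphatase laforin, fell by 36.3%. The calls of Ppp1r3a in TAC saline and of Phkb and Stbd1 in TAC NRG were kept under every alternative run that tested the gene. The stricter filter on low values left Stbd1 untested. The other 5 calls were lost under at least 1 alternative (Phkb and Stbd1 in TAC saline, and Ppp1r3a, Gyg and Epm2a in TAC NRG), at adjusted p up to 0.155.

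Isoform pairs were then compared within each library, as the log2 ratio of the reads of one gene to those of the other, which no scaling between libraries can move. Of 9 ratios, 2 were higher in TAC saline than in sham saline by an exact two-sided permutation test adjusted over 27 tests, 5 in TAC NRG than in sham saline, and 0 in TAC NRG than in TAC saline (1 at an unadjusted p under 0.05). With 5 libraries against 5 the smallest possible p is 0.0079, which adjusted to 0.0306, and all 7 called ratios reached it because their groups did not overlap.

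Pfkp reads per 100 Pfkm reads were 5.40 ± 0.682 in sham saline, 11.2 ± 3.38 in TAC saline and 17.2 ± 5.64 in TAC NRG (SD, n = 5). Its log2 ratio was -4.05, -4.26, -4.35, -4.00 and -4.40 in sham saline libraries, -2.97, -3.40, -3.67, -3.37 and -2.61 in TAC saline and -2.63, -2.82, -1.89, -2.66 and -2.96 in TAC NRG. Both TAC groups lay above sham saline, by 1.01 ± 0.20 and 1.62 ± 0.20 (exact permutation p = 0.0079, adjusted p = 0.0306 for each), and they overlapped each other. The difference between the TAC groups was 0.61 ± 0.26, with an exact p of 0.0635 and an adjusted p of 0.132. Pfkl per 100 Pfkm stood at 8.58 ± 0.380, 10.6 ± 2.24 and 13.4 ± 2.87, and its log2 ratio was 0.62 ± 0.13 higher in TAC NRG than in sham saline (exact permutation p = 0.0079, adjusted p = 0.0306).

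Ldha reads per 100 Ldhb reads were 36.0 ± 2.51 in sham saline, 57.1 ± 12.4 in TAC saline and 62.7 ± 15.3 in TAC NRG. The log2 ratio was -1.52, -1.59, -1.37, -1.37 and -1.52 in sham saline, -0.57, -1.12, -1.20, -0.81 and -0.48 in TAC saline, and -0.77, -1.15, -0.20, -0.70 and -0.72 in TAC NRG. Sham saline was below both TAC groups without overlap, by 0.64 ± 0.15 and 0.77 ± 0.16 (exact permutation p = 0.0079, adjusted p = 0.0306 for each). Between the TAC groups the difference was 0.13 ± 0.21, with an exact p of 0.556.

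Hk1 per 100 Hk2 was 43.3 ± 5.51, 61.9 ± 16.9 and 71.9 ± 9.96 in sham saline, TAC saline and TAC NRG, and Eno1 per 100 Eno3 was 1.83 ± 0.184, 2.55 ± 0.583 and 3.61 ± 0.958. In TAC NRG their log2 ratios were 0.73 ± 0.12 and 0.94 ± 0.19 above sham saline (exact permutation p = 0.0079, adjusted p = 0.0306 for each). Slc2a1 per 100 Slc2a4 was 6.55 ± 0.953, 7.78 ± 0.971 and 11.98 ± 4.32. The log2 difference of 0.81 ± 0.24 between TAC NRG and sham saline had an exact permutation p of 0.0159 and an adjusted p of 0.0536, and that of 0.56 ± 0.24 between the TAC groups an exact p of 0.0476 and an adjusted p of 0.117. The ratios Pygb to Pygm, Pdk1 to Pdk4 and Pdk2 to Pdk4 passed no test. With any 1 sham saline library left out, all 7 called ratios were lost, at adjusted p of the permutation test between 0.0536 and 0.0918. With any 1 TAC library of the comparison left out, all 7 were kept.

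**Figure D3:**
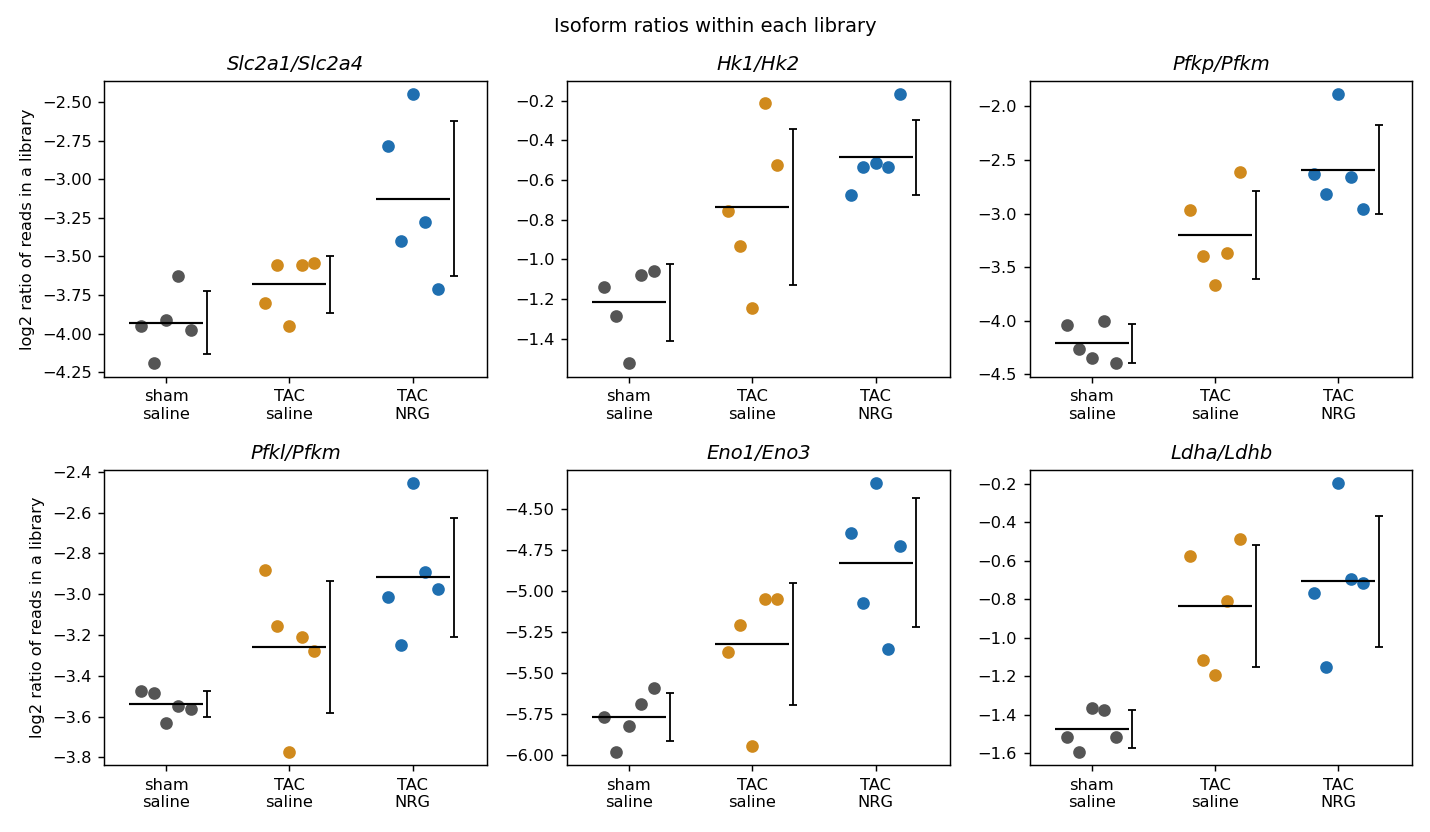
Log2 ratio of reads of the first gene to reads of the second within each library (vertical axes) for 6 isoform pairs; each point is 1 library, the line is the group mean and the bar the SD of 5 libraries. The Pfkp to Pfkm and Ldha to Ldhb ratios of all 5 sham saline libraries lie below those of all 10 TAC libraries.

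Markers of other cell types moved with the same groups. Between TAC saline and sham saline 4 of 6 fibroblast, 6 of 7 macrophage and 4 of 4 mitotic markers rose. Of 8 ventricular cardiomyocyte markers 1 rose and 3 fell, and 1 of 5 smooth muscle and pericyte markers rose. Acta1, of the skeletal muscle list, also rose, where 6.47% of all tested genes rose and 4.24% fell. Of the 7 genes on that list 5 were measured and 2, Acta1 and Ckm, were tested. Myh4 and Tnnt3 were at 0 reads in at least 1 library. Changes of Acta1 and Ckm are thus not read here as a change in skeletal muscle cells. Fibroblast markers summed to 890.0 to 968 CPM in sham saline, 1165 to 2001 CPM in TAC saline and 1422 to 2425 CPM in TAC NRG. Macrophage markers summed to 169 to 243 CPM, 221 to 348 CPM and 181 to 316 CPM in the same order. Between TAC NRG and TAC saline 0 of 6 fibroblast, 0 of 7 macrophage and 0 of 4 mitotic markers were called (0, 1 and 2 at an unadjusted p under 0.05). Of 6 endothelial markers 1, Cdh5, fell, and of 8 ventricular cardiomyocyte markers 1, Tnnt2, rose. All 5 red cell markers rose, where 0.672% of all tested genes rose and 0.626% fell. The 4 mitotic markers had a median log2 fold change of -1.07 in that comparison and summed to 4.48 to 10.98 CPM in sham saline, 19.05 to 75.3 CPM in TAC saline and 12.7 to 27.5 CPM in TAC NRG, with Ccnb1 at 0 reads in at least 1 library. Between TAC NRG and sham saline 5 of 5 red cell, 4 of 4 mitotic, 4 of 6 fibroblast and 2 of 7 macrophage markers rose. Of 5 smooth muscle and pericyte markers 2 rose and 1 fell, and of 8 ventricular cardiomyocyte markers 1 rose and 4 fell. Of the 2 tested genes of the skeletal muscle list Acta1 rose and Ckm fell, where 8.74% of all tested genes rose and 7.39% fell. The part of these markers in the changes of the glucose genes was not tested. In bulk tissue fewer cells of a type and less RNA per cell cannot be told apart.

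Single libraries also differed across steps. TAC NRG 3 held the lowest level of its group for Slc2a4, Pfkm, Eno3, Ldhb, Pdk2 and Pygm and the highest for Pfkp and Slc2a1. TAC NRG 4 and 5 held the highest levels of their group for Tpi1 and Gpi1. TAC saline 5 held the lowest level of its group for Slc2a4, Pfkm, Ldhb, Pdk2 and Pygm and the highest for Pfkp, and TAC saline 3 the highest of its group for those that TAC saline 5 held lowest.

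**Figure D4:**
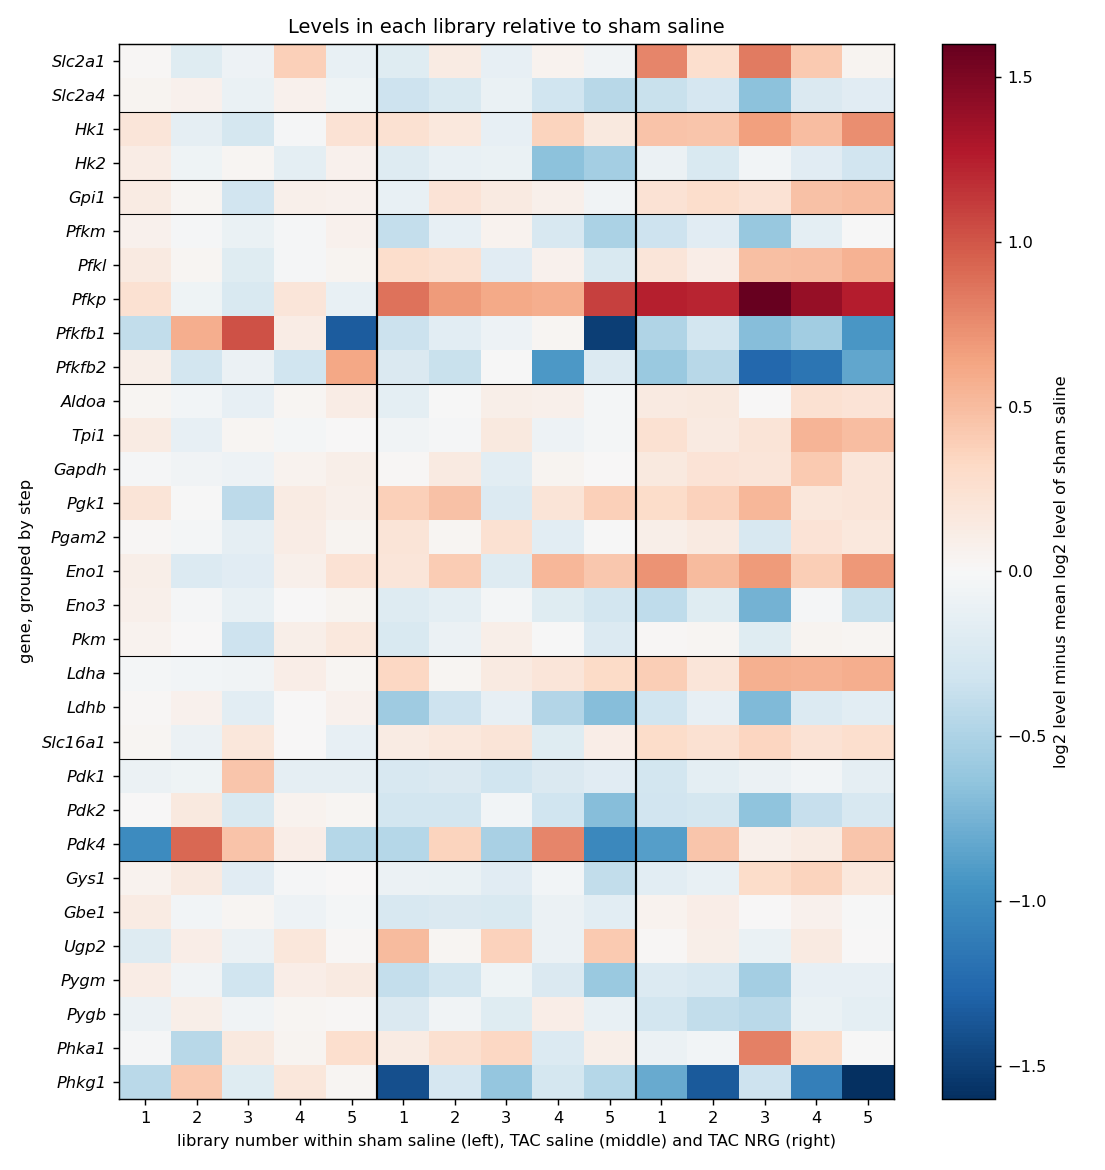
Log2 level in each of the 15 libraries minus the mean log2 level of the 5 sham saline libraries (colour, red higher and blue lower) for the 31 tested genes, ordered by step; columns are library numbers within sham saline, TAC saline and TAC NRG. The Pfkp line is red in all 10 TAC libraries, and the Slc2a4, Pfkm, Ldhb and Pygm lines are darkest blue in TAC saline 5 and TAC NRG 3.

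The wider control of glucose use was read from 28 genes of insulin signalling, AMP-activated kinase (AMPK) and transcription. In TAC saline against sham saline 1 rose and 7 fell, between the TAC groups 1 rose and 0 fell, and in TAC NRG against sham saline 3 rose and 11 fell. In these comparisons 3.57%, 3.57% and 10.7% of the list rose against 6.47%, 0.672% and 8.74% of all tested genes, and 25.0%, 0.0% and 39.3% fell against 4.24%, 0.626% and 7.39%. Akt2, the insulin-signalling kinase upstream of GLUT4 movement, fell by 27.6% in TAC saline (log2 fold change -0.47 ± 0.10, limma adjusted p = 0.00266) and by 17.9% in TAC NRG (-0.28 ± 0.10, adjusted p = 0.0449). The second call was lost when any 1 of its 10 libraries other than TAC NRG 1 was left out, at adjusted p of 0.0522 to 0.0942. Tbc1d4, the Akt substrate that restrains GLUT4, fell by 35.4% in TAC NRG (-0.63 ± 0.14, adjusted p = 0.00206). Pik3r1, a regulatory subunit of phosphoinositide kinase, fell by 22.9% and 28.2%, and Pik3ca, a catalytic subunit, by 23.8% in TAC NRG.

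AMPK subunits did not share a direction. The catalytic Prkaa2 fell by 19.4% in TAC saline and 28.5% in TAC NRG, and Prkab1 by 29.5% and 25.5%. Prkag1 fell by 22.5% in TAC saline. Prkag2 rose 1.40-fold in TAC saline (log2 fold change 0.48 ± 0.16, limma adjusted p = 0.0494) and 1.61-fold in TAC NRG (0.69 ± 0.16, adjusted p = 0.00367).

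Of the oxygen-sensing genes, Hif1a, a hypoxia-inducible factor subunit, rose 1.47-fold in TAC NRG against sham saline (log2 fold change 0.56 ± 0.13, limma adjusted p = 0.00319). Egln3, a prolyl hydroxylase of that factor, rose 1.40-fold in TAC NRG against TAC saline (0.48 ± 0.12, adjusted p = 0.0403) and 1.37-fold against sham saline. Its relative Egln1 fell by 22.6% in TAC saline and 21.1% in TAC NRG. Klf15, a transcription factor that raises GLUT4, fell by 38.0% and 30.5%. In TAC NRG the transcription factors Mef2a and Mef2d fell by 20.6% and 18.4%, and Ppargc1a, the coactivator of mitochondrial genes, fell by 45.8% (-0.88 ± 0.15, adjusted p = 0.000193). Of the 23 calls in these 28 genes, 13 were kept under every alternative run. Those lost under at least 1 were Pik3r1, Prkaa2, Prkag1 and Prkag2 in TAC saline, Akt2, Pik3ca, Mef2a, Mef2d and Klf15 in TAC NRG against sham saline, and Egln3 in TAC NRG against TAC saline. The rise of Egln3 against TAC saline was lost without TAC saline 1, 3, 4 or 5 or TAC NRG 1, 3 or 4, at adjusted p of 0.0563 to 0.13.

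Among 9 tested isoenzymes and carriers outside the set, 0 rose and 1 fell in TAC saline against sham saline, 0 changed between the TAC groups (3 at an unadjusted p under 0.05), and 0 rose and 1 fell in TAC NRG against sham saline. The 1 fall in each is 11.1% of the list, against 4.24% and 7.39% of all tested genes. Bsg, the chaperone of lactate carriers, fell by 20.1% in TAC saline (log2 fold change -0.32 ± 0.10, limma adjusted p = 0.0318), a call lost without sham saline 1, 2 or 4 or TAC saline 1 or 5, at adjusted p of 0.067 to 0.111. Slc16a7, another lactate and pyruvate carrier, fell from 4.65 ± 1.48 CPM to 2.13 ± 0.319 CPM in TAC NRG (-1.09 ± 0.28, limma adjusted p = 0.0096). Its TAC NRG level was below the 2.95 reads per M that the filter asked for, so the gene was tested through libraries of the other groups. A fall in so few reads is uncertain. The call was kept under every alternative run that tested the gene, which the stricter filter on low values left out.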

How the data were processed

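Per the submitters' processing notes the build was GRCm39, and no source used here names the aligner, the counter or the scaling. From the spacing of their values, the authors' deposited log2 data are the log2 of a library factor times the reads, with 0.5 reads added first. Undoing this factor returned whole reads (98.9% to 99.5% of values within 0.05 of one). CPM are the deposited values out of the log, divided by 1000. All 15 libraries entered 1 fit of the log2 values in limma 3.58.1 (R 4.3.3), with the spread allowed to follow the level. It covered 11018 genes that reached 2.95 reads per M in 5 or more libraries and 15 reads in all libraries, and 4240 genes were left out. Tests were two-sided with Benjamini-Hochberg adjustment and a threshold of 0.05. The procedure was run on simulated data in which every group had the same spread between libraries, taken from abundant genes in sham saline. That run does not cover groups of unequal spread. Ratios used exact permutation, with 0.5 reads added. Members, lists and tests were chosen with earlier results of these data known. Values in each library are given for genes past the threshold or with groups that do not overlap, for the isoform sets, Pfkp and Tpi1, and the others by range; list genes are named if past the threshold, and a few list genes are not reported here or counted. Alternatives covered scaling, offset, weights, spread, filter, groups in the fit, replicate block and leaving out libraries. Figures used Python 3.11.15 and matplotlib 3.10.9.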

Additional observations from a re-analysis of the deposited data

Results flagged for a closer look

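In 10 of the 93 groups of 5 libraries, 1 library stood far from the other 4 by Dixon's 95% criterion, which flags about 1 in 20 groups by chance. Of these, 3 were in sham saline 3. Gpi1 there was 168.6 CPM, with the other libraries at 213.5 to 228 CPM. Ldhb there was 2084 CPM, with the others at 2347 to 2454 CPM. Pdk1 there was 107.0 CPM, with the others at 71.4 to 74.8 CPM.

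In TAC saline, Pfkfb1 was 2.525 CPM in library 5 against 5.64 to 7.29 CPM in the others, Tpi1 was 335.1 CPM in library 3 against 283 to 296 CPM, and Slc16a1 was 165.5 CPM in library 4 against 203 to 218 CPM. In TAC NRG, library 3 held Pgam2 at 773.7 CPM against 987 to 1079 CPM and Pkm at 429.1 CPM against 497 to 503 CPM. Gapdh was 1099 CPM in TAC NRG 4 against 915 to 951 CPM, and Pdk4 was 104.3 CPM in TAC NRG 1 against 203 to 261 CPM.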

How the results depend on the processing

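No call of the 31 genes reversed under any alternative run, and of 25 single-gene calls 8 were kept under every alternative that tested the gene. They were Pfkp in TAC saline and in TAC NRG against sham saline, and Hk1, Eno1, Ldha, Slc2a4, Pfkfb2 and Phkg1 in TAC NRG against sham saline. Phkg1 was left untested by the stricter filter on low values, so its call was kept under the 21 other alternatives. Genes called in TAC saline against sham saline numbered 6, 4 with total reads as the only scaling, 1 with no trend of spread on level and 3 with the replicate number as a block, and 2 to 9 with 1 library left out, where 9 was reached without TAC saline 3. In TAC NRG against TAC saline 2 were called, 1 with total reads as the only scaling, total reads without mitochondrial genes, no filter, the 2 groups alone or the replicate block, 0 with no trend or without TAC NRG 4 and 5, and 1 to 3 with 1 library left out. In TAC NRG against sham saline 17 were called, 9 with no trend and 12 to 17 with 1 library left out. The cause of these losses was not tested. Isoform ratios without overlap numbered 2, 0 and 5 in these comparisons, and 2 to 5, 0 to 1 and 5 to 6 with 1 library left out. Same-numbered libraries showed no correlation of their deviations over 0.1 (15 pairs, r -0.246 to 0.08), and the main fit used no pairing. Such correlations cannot exclude a step shared by number. Of 51 calls in the other lists, 22 were kept under all alternatives that tested the gene and 0 reversed. No paired analysis of the ratios was run, since a sign test on 5 pairs cannot pass the threshold. Depth limits the low transcripts, since 1 read was worth 0.464 CPM in TAC NRG 4 and 0.442 CPM in TAC NRG 5.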

Other observations

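In the side branches of glucose metabolism, the largest response to NRG was that of Gpd1, the cytosolic glycerol phosphate dehydrogenase that turns a glycolytic intermediate into the backbone of triglycerides. Its levels were 31.7, 28.1, 22.8, 21.8 and 30.97 CPM in the sham saline libraries, 27.6, 25.1, 28.2, 26.1 and 30.2 CPM in TAC saline and 42.2, 44.8, 51.3, 49.5 and 60.3 CPM in TAC NRG. Every TAC NRG library lay above every library of both other groups, which covered the same range. Gpd1 rose 1.80-fold against TAC saline (log2 fold change 0.85 ± 0.12, limma adjusted p = 0.000256) and 1.84-fold against sham saline (0.88 ± 0.12, adjusted p = 1.85e-05), and its difference between TAC saline and sham saline was 0.03 ± 0.12. Both calls were kept under every alternative run, including without TAC NRG 4 and 5. Gpd2, its mitochondrial counterpart, fell by 43.0% in TAC NRG against sham saline (-0.81 ± 0.20, adjusted p = 0.00661).

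Over the 19 genes of these branches, 0 rose and 1 fell in TAC saline against sham saline, where 6.47% of all tested genes rose. Between the TAC groups 1 rose, 5.26% of the list, and 0 fell, against 0.672% and 0.626% of all tested genes. In TAC NRG against sham saline 2 rose and 4 fell. The single fall in TAC saline, 5.26% of the list, and the rises in TAC NRG against sham saline, 10.5%, were near the 4.24% and 8.74% of all tested genes, while the falls in TAC NRG were 21.1% against 7.39%. Sord, the sorbitol dehydrogenase of the polyol pathway, fell by 26.8% in TAC saline (-0.45 ± 0.10, limma adjusted p = 0.0064) and by 34.9% in TAC NRG (-0.62 ± 0.10, adjusted p = 0.00018). Akr1b3, the aldose reductase that feeds it, fell by 24.2% in TAC NRG. Pgls, of the pentose phosphate pathway, rose 1.27-fold, and Gfpt2, of the hexosamine pathway, fell by 41.2%, both in TAC NRG against sham saline. The Gfpt2 call was lost without sham saline 1, 3, 4 or 5 or TAC NRG 2, 4 or 5, at adjusted p of 0.055 to 0.134, and without TAC NRG 4 and 5 together the adjusted p was 0.257 for Gfpt2, 0.0743 for Pgls and 0.0627 for Gpd2. The Akr1b3 call was lost with total reads as the only scaling, at an adjusted p of 0.0888.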
